A study of Homo sapiens with 4 samples.

Results

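The genes described here encode 7 proteins that build the spindle midzone and complete cell division: PRC1, RACGAP1, NUSAP1, ECT2, ANLN, CIT and CEP55. They were looked up by symbol among array rows that carry exactly 1 gene symbol, and 6 of the 7 had such a row, 1 row each, of 21469 genes in all. CIT, which encodes citron kinase, shares its row with the microRNA gene MIR1178, so that the row could not be given to either gene and CIT has no value here. Expression was measured on 4 Affymetrix Human Transcriptome Array 2.0 arrays, 2 of nocodazole-treated and 2 of DMSO-treated U2OS cells, a single human osteosarcoma line. Nocodazole depolymerises microtubules, and DMSO is its solvent. Both groups had been starved of serum for 24 h, held in thymidine for 24 h and released for 3 h before the 48 h of nocodazole or DMSO, and both carry the name PLKO.1 in their titles, which the labels do not explain. The series title speaks of post-slippage cells, those that leave a mitotic arrest without dividing, but the share of cells in mitosis, past slippage or still cycling is not given in the sources used here.

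After chromosomes separate, overlapping microtubules between them are bundled into the spindle midzone, where a complex of kinesin and RACGAP1 called centralspindlin gathers. The midzone activates the small GTPase RHOA at the cell equator through ECT2, a contractile ring held by anillin pulls the membrane in, and the remaining bridge, the midbody, is cut by the ESCRT membrane-scission machinery, which CEP55 recruits. Many of these genes are transcribed mainly in G2 and M phase. Their cell-cycle control is known to run through the MuvB complex, which binds the CHR element of promoters with the pocket proteins in resting cells and with B-MYB and FOXM1 in dividing ones.

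After quantile normalization all 6 measured genes lay lower on both nocodazole arrays than on either DMSO array, as did 18.7% of all genes. As deposited all 6 did so too, against 66.3%, and after median centring 5 of the 6, against 15.5%. None of the 6 passed the test after quantile normalization with all genes tested. With dim genes left out, 3 of the 6 were called lower, against 0.59% of the genes then tested. After quantile normalization the log2 fold changes, nocodazole minus DMSO, were between -1.00 for NUSAP1 and -0.30 for ECT2, with a median of -0.58, against a median of 0.00 over all genes. By limma with Benjamini-Hochberg adjustment over the 21469 genes, 0 of the 6 were called lower at an adjusted p under 0.05, where 0.0978% of all genes were. At an unadjusted p under 0.05, 5 of the 6 were lower, against 5.05% of all genes. On the values as deposited limma called all 6 lower, but there 24.9% of all genes, and 68.8% of the genes of like brightness, were called lower, and the median of all genes was -0.45. The other genes of the midzone and of the passenger complex that sits there had negative values too, whereas the ESCRT genes that cut the midbody had a median of 0.13, which was -0.37 as deposited.

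The shift between the deposited arrays moves with the treatment and stands beside every value given as deposited. Array medians over all genes were 5.87 and 5.68 for nocodazole replicates 2 and 3, against 6.38 and 6.06 for DMSO replicates 2 and 3. The medians of the antigenomic background probes were 4.36 and 3.72 with nocodazole replicates 2 and 3, against 4.81 and 4.02 with DMSO. They were lower with nocodazole within each replicate number. Unlike the gene medians the groups overlapped, since nocodazole replicate 2 stood above DMSO replicate 3. What part of the shift is technical was not tested. Of 8 osteoblast and mesenchymal marker genes, all 8 lay above the background median on all 4 arrays, with VIM and SPARC among the brightest, but RUNX2 and COL1A2 were below the middle of the genes. Of 6 measured haematopoietic markers, 4 lay above background on all 4 arrays (CD14, CD3E, HBB and CD68, the last one bright), and PTPRC, the defining leukocyte marker, and LYZ were below it on all 4. Of 4 endothelial markers CDH5 and VWF lay above background on all arrays, PECAM1 on 1 and KDR on none. All 5 epithelial markers lay above background, with KRT8 and KRT18 bright, EPCAM and CDH1 below the middle of the genes and KRT19 near it. Lying above background is common, since 15937 of the 21469 genes had a mean at or above the highest background median. As deposited on the log2 scale, the summed osteoblast markers were 11.07 and 11.22 with nocodazole, against 11.87 and 12.05 with DMSO, and the epithelial ones 10.60 and 10.87 with nocodazole, against 11.14 and 11.53 with DMSO. The brightest genes weigh most in such a sum. Of the osteoblast markers SPP1 went the other way, with 6.47 and 6.45 with nocodazole, against 5.70 and 6.31 with DMSO. ALPL differed little, with 6.75 and 6.65 with nocodazole, against 6.81 and 6.68 with DMSO. The haematopoietic sum was 8.75 and 8.74 with nocodazole, against 8.74 and 8.61 with DMSO, and its brightest gene, CD68, had 8.33 and 8.44 with nocodazole, against 8.11 and 8.18 with DMSO. The endothelial sum was 6.92 and 6.58 with nocodazole, against 7.59 and 6.90 with DMSO. The part of these markers in the results was not tested. In bulk RNA, fewer cells expressing a gene and less RNA of it per cell cannot be told apart, and this holds for every change below.

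**Figure D1:**
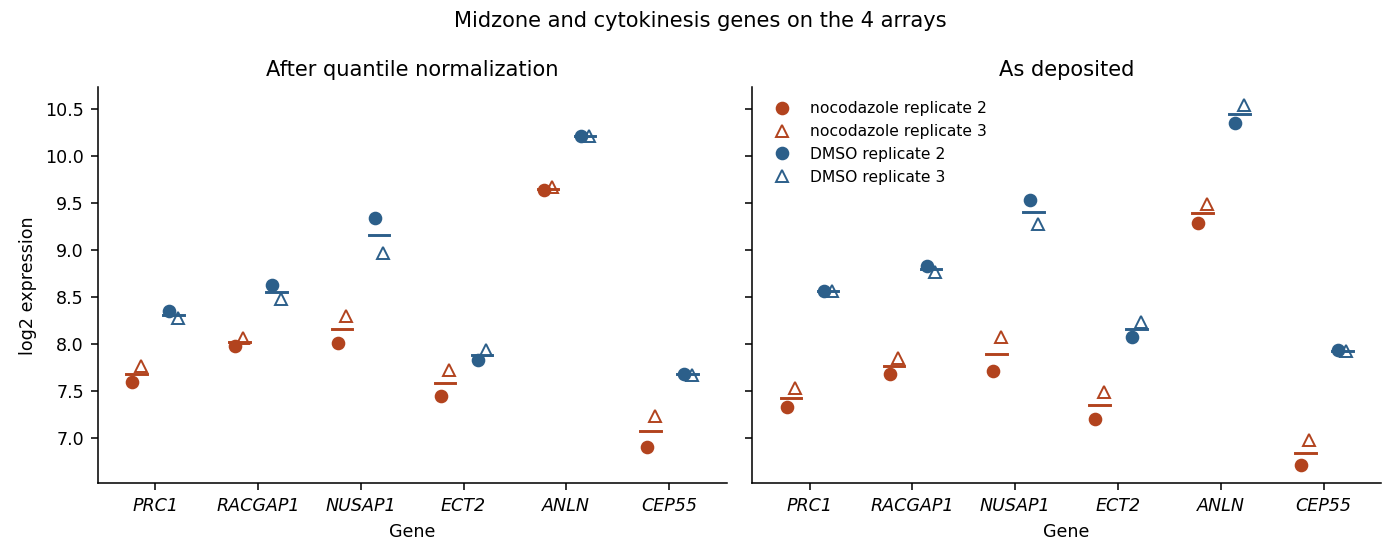
Log2 expression of the 6 measured genes on each array after quantile normalization (left) and as deposited (right); circles are replicate 2, triangles replicate 3, and bars the group means. In both panels the nocodazole arrays lie below the DMSO arrays for all 6 genes.

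The promoters of these genes are shown because the 6 lay lower together and because the CHR element named above is known in genes of this class. No link between a motif and the lower values was tested. RefSeq promoter windows (GRCh38.p14, from 250 bases before to 50 after the annotated start) were found for 6 of the 7 genes, with none for RACGAP1. The windows of the 5 genes that have both a value and a window are printed 5′ to 3′ on the gene's strand, with capitals marking the matches of 3 motifs on either strand. The CHR element was searched as TTTGAA and in its rarer form TTCGAA. The box bound by the factor NF-Y was searched as CCAAT. The core of an E2F site was searched as TTCCCGC, in another form as TTGGCGC and also as TTCGCGC. They lie at chr15:41332631-41332930 on the plus strand for NUSAP1, chr15:90994486-90994785 on the minus strand for PRC1, chr7:36389612-36389911 on the plus strand for ANLN, chr10:93496362-93496661 on the plus strand for CEP55 and chr3:172750476-172750775 on the plus strand for the first of 2 annotated starts of ECT2.
NUSAP1: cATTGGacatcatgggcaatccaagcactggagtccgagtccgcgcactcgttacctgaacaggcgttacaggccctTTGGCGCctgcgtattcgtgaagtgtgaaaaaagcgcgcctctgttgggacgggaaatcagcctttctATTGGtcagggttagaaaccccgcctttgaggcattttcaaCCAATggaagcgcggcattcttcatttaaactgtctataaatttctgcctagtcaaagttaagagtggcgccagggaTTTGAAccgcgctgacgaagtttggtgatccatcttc
PRC1: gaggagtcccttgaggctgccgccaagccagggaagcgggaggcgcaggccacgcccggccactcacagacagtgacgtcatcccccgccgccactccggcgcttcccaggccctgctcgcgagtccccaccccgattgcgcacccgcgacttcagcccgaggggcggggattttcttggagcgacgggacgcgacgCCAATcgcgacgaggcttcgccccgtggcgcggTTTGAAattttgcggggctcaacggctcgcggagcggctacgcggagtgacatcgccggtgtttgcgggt
ANLN: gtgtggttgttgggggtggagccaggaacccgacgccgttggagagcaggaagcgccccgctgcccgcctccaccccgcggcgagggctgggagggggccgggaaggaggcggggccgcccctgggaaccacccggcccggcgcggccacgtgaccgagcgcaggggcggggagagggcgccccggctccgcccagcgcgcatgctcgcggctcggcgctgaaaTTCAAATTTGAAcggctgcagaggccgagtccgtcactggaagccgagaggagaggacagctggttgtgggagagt
CEP55: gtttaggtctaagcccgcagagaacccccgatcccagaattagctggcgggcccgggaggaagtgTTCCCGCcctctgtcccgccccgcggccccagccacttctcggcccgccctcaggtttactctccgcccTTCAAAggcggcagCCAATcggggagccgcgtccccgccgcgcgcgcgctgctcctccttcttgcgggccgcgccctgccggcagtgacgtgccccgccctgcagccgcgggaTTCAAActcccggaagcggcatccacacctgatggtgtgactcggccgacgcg
ECT2: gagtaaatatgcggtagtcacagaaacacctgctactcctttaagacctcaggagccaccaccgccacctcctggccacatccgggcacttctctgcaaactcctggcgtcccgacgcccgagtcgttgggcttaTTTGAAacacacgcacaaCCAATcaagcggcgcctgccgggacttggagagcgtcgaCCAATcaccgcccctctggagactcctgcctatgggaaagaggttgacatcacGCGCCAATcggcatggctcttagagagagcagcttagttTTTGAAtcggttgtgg

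A CHR match was present in 6 of the 6 genes with a window, CIT and the second ECT2 window included, and in 16.4% of all 35116 windows. In PRC1 it began 20 bases upstream of the start and in NUSAP1 13 bases downstream. ANLN held a match on each strand side by side, beginning 26 and 20 bases upstream. CCAAT was found in 5 of the 6, in all but ANLN, against 34.6% of all windows. An E2F core was found in 3 of the 6, CEP55, ECT2 and NUSAP1, against 11.0%. These counts are by gene and the shares by window, and the second ECT2 window held no CCAAT and no E2F core. In the first ECT2 window the E2F core overlaps a CCAAT box. The motifs were picked for their known place in genes of this class, and a match describes the letters of the window only.

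PRC1 cross-links antiparallel microtubules and so makes the midzone bundle. Its normalized log2 expression was 7.60 and 7.77 on the nocodazole arrays, against 8.35 and 8.28 on the DMSO arrays. The lower DMSO array stood 0.51 above the higher nocodazole array. The log2 fold change was -0.63 ± 0.12 (limma SE, n = 2 per group), to 64.6% of the DMSO level, with a 95% interval of -0.91 to -0.35 and a limma adjusted p of 0.0968.

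RACGAP1 is the GTPase-activating subunit of centralspindlin and the docking site of ECT2. It had 7.98 and 8.07 with nocodazole, against 8.63 and 8.48 with DMSO, and the groups did not overlap. The log2 fold change was -0.53 ± 0.12 (SE), which did not pass (limma adjusted p = 0.151).

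NUSAP1 binds and bundles spindle microtubules near the chromosomes. Its normalized values were 8.02 and 8.30 with nocodazole, against 9.34 and 8.97 with DMSO. The DMSO arrays were the most spread pair of any of the 6 genes, 0.37 apart, and still both lay above the nocodazole arrays. The log2 fold change of -1.00 ± 0.16 (SE; 95% interval -1.36 to -0.64) is a 2.00-fold lower level and came closest to the threshold, with a limma adjusted p of 0.0582. Of all 21469 genes, 35 had a lower log2 fold change.

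ECT2 is the exchange factor that loads RHOA with GTP at the equator. It had 7.45 and 7.73 with nocodazole, against 7.83 and 7.94 with DMSO. The gap between the nearest arrays was 0.10, smaller than the 0.28 between the nocodazole replicates. The log2 fold change was -0.30 ± 0.14 (SE), with a 95% interval of -0.62 to 0.02 that includes 0 and a limma adjusted p of 0.578. Without nocodazole replicate 2 it was -0.16. After median centring the groups overlapped, at 7.27 and 7.85 with nocodazole replicates 2 and 3, against 7.66 and 8.24 with DMSO. On that scale replicate 3 stood above replicate 2 by 0.58 with nocodazole and 0.59 with DMSO. Within each replicate number ECT2 was still lower with nocodazole.

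ANLN encodes anillin, the scaffold that ties RHOA, actin, myosin and septins together in the contractile ring. It was the brightest of the 6 rows and lay in the top 2% of genes on every array. Its values were 9.63 and 9.67 with nocodazole, against 10.22 on both DMSO arrays, where it held the same rank and quantile normalization therefore gave it the same value. The log2 fold change was -0.56 ± 0.09 (SE; limma adjusted p = 0.0659). As deposited, ANLN had 9.29 and 9.50 with nocodazole, against 10.35 and 10.54 with DMSO.

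CEP55 brings the ESCRT machinery to the midbody. Its normalized values were 6.91 and 7.24 with nocodazole, against 7.68 on both DMSO arrays. The nocodazole replicates differed by 0.32, the widest such gap of the 6 genes, and the DMSO replicates by 0.01. The log2 fold change was -0.61 ± 0.15 (SE; 95% interval -0.94 to -0.27; limma adjusted p = 0.196).

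The rank of a gene within its own array does not depend on how the arrays are scaled. CEP55 was brighter than 73.1% and 80.0% of genes on the nocodazole arrays, against 87.2% on both DMSO arrays. NUSAP1 was brighter than 91.0% and 93.4% of genes with nocodazole, against 98.2% and 97.1% with DMSO, and for PRC1 the shares were 86.1% and 88.3% with nocodazole, against 93.8% and 93.3% with DMSO. For ECT2 they were 83.9% and 87.9% with nocodazole, against 89.1% and 90.3% with DMSO. ANLN, near the top of the range, had 98.7% and 98.8% with nocodazole, against 99.4% on both DMSO arrays. All 6 genes were expressed well over background, at 2.36 to 5.77 log2 units above the background median of the array with nocodazole, against 3.13 to 6.52 with DMSO.

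Both nocodazole arrays lay below both DMSO arrays for 6 of the 6 genes after quantile normalization, where 18.7% of all genes were so ordered. As deposited the same held for all 6, against 66.3% of all genes, and after median centring for 5, ECT2 being the exception, against 15.5%; there limma called 0 of the 6, against 0.00466% of all genes lower, and 3 at an unadjusted p under 0.05, against 3.01%. Among the 3556 genes whose mean normalized level lay within the range of the 6 genes, 7.38 to 9.94, the median log2 fold change was 0.00, and limma called 17 lower, 0.478%. As deposited the median of these 3556 genes was -0.51 and 68.8% of them were called lower. As deposited the fold changes of the 6 ran from -1.51 for NUSAP1 to -0.81 for ECT2, with adjusted p-values by limma of 2.04e-07 and 0.000535 at these ends. Relative to the median of all genes, their median was -0.59 after quantile normalization and -0.62 as deposited.

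Whether these genes pass depends on which other genes are tested and on the variance model. With 5532 dim genes left out, limma on the quantile-normalized values called 3 of the 6 lower, against 0.59% of the 15937 genes then tested: NUSAP1 (adjusted p = 0.0193), ANLN (adjusted p = 0.0302) and PRC1 (adjusted p = 0.0489). With 1 prior variance for all levels, limma called 0 of the 6 even as deposited, where it called 1 gene of all. With 2 arrays in each group an exact two-sided permutation test cannot give a p under 0.333, so no such test was made for single genes.

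**Figure D2:**
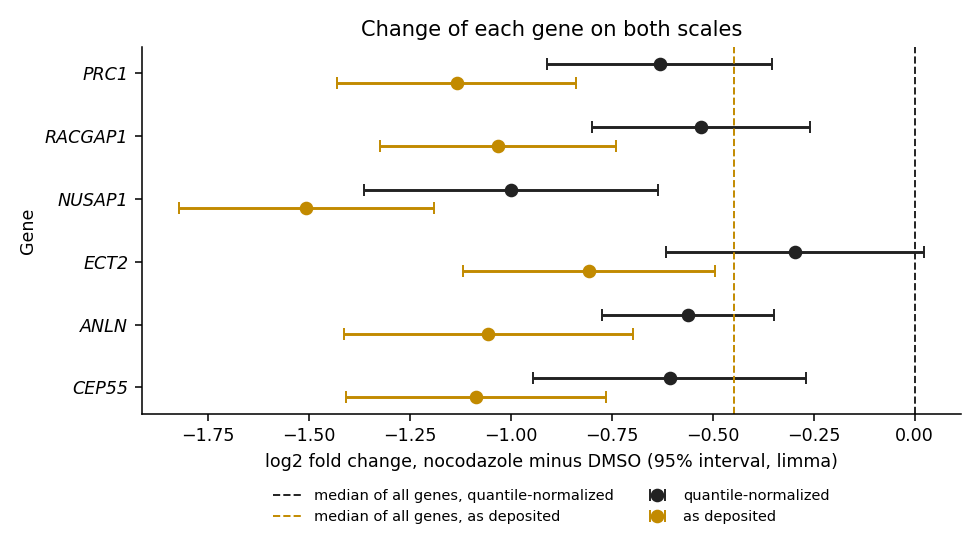
Log2 fold change of each gene, nocodazole minus DMSO, with limma's 95% interval, after quantile normalization (black) and as deposited (ochre); dashed lines mark the median of all genes on each scale. The ochre points lie further left by about the distance between the dashed lines, and the interval of ECT2 reaches 0 on the normalized scale.

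The changes of the 6 genes are set side by side here as a description, without a test. To compare them without any shift common to an array, each deposited value was centred on the gene's mean and the mean of the other 5 genes of that array was subtracted. NUSAP1 then lay at -0.31 and -0.17 with nocodazole, against 0.40 and 0.08 with DMSO, a difference in change of -0.48. ECT2 lay at 0.15 and 0.20 with nocodazole, against -0.27 and -0.09 with DMSO, a difference of 0.36 in the other direction. NUSAP1 and ECT2 were thus 0.70 apart in their changes, the widest of the 15 pairs. For CEP55, ANLN, PRC1 and RACGAP1 the corresponding differences were between -0.04 and 0.08. Since no permutation test can pass here, these differences are a description of 4 arrays.

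**Figure D3:**
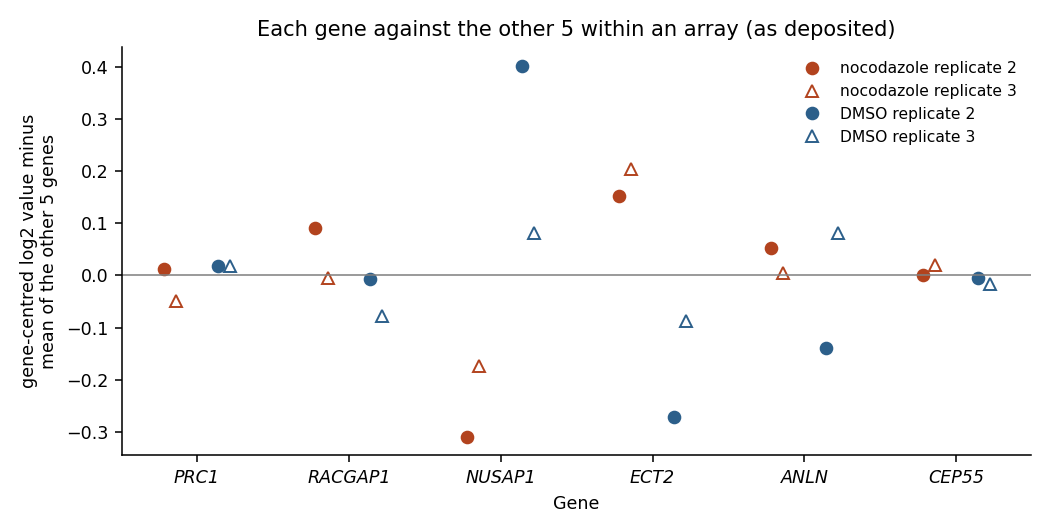
Gene-centred log2 value of each gene minus the mean of the other 5 on the same array, as deposited; colours and symbols mark treatment and replicate. NUSAP1 is lower and ECT2 higher with nocodazole relative to the other genes, while CEP55 and PRC1 lie near 0 on all 4 arrays.

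Other genes of the pathway were taken from lists by role, and their medians leave out the 6 genes above. Values above 0 in these lists are relative to the array-wide shift, since as deposited 84 of the 85 other measured genes had values below 0, all but CHMP4B at 0.00. Nearly all genes did so as deposited, where the 95th percentile of all log2 fold changes was -0.02. The first list held 7 other midzone genes: the kinesins KIF4A, KIF14, KIF20A, KIF20B and KIF23 and the microtubule stabilisers CLASP1 and CLASP2. All 7 had values below 0, as did 49.6% of all genes, with a median of -0.49. Limma called 0 after quantile normalization and 6 lower as deposited, against 24.9% of all genes lower as deposited. At an unadjusted p under 0.05, 5 were lower, against 5.05% of all genes. KIF20A, a kinesin that carries the passenger complex to the midzone, had 7.26 and 7.48 with nocodazole, against 8.52 and 8.19 with DMSO. Its log2 fold change of -0.98 ± 0.15 (SE; limma adjusted p = 0.0566) was next to that of NUSAP1. KIF4A, the motor that PRC1 recruits to the midzone, had a value of -0.64 ± 0.13 on the log2 scale, which did not pass (limma adjusted p = 0.106), close to that of PRC1 itself. KIF23, the kinesin subunit of centralspindlin, had 9.04 and 9.14 with nocodazole, against 9.48 and 9.60 with DMSO. That is a change of -0.45 ± 0.10 (limma adjusted p = 0.172), beside -0.53 for its partner RACGAP1. CLASP2 had the smallest change of the list, -0.06 ± 0.19.

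The 4 subunits of the chromosomal passenger complex and PLK1, the kinase that primes RACGAP1 for ECT2, had changes between -0.46 and -0.33, with a median of -0.38. Limma called 0 of these 5 after quantile normalization. All 5 were lower at an unadjusted p under 0.05, against 5.05% of all genes. All 5 were called lower as deposited, against 24.9%. CDCA8, the subunit borealin, was at the low end with -0.46 ± 0.13 (limma adjusted p = 0.292), and AURKB, the kinase subunit, at the other with -0.33 ± 0.12 (limma adjusted p = 0.436).

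Genes of RHOA and of the contractile ring were spread around 0. Of 18 other measured genes 11 had values below 0 and 7 above, with a median of -0.01. Limma called 0 after quantile normalization and 9 lower as deposited, against 24.9% of all genes lower as deposited. At an unadjusted p under 0.05, 2 passed, both lower, against 5.05% of all genes lower. MYH10, a non-muscle myosin heavy chain, was lowest at -0.47 ± 0.13 on the log2 scale (limma adjusted p = 0.259), and CFL1, the actin-severing protein cofilin, highest at 0.18 ± 0.12 (limma adjusted p = 0.757). RHOA itself was at -0.03 ± 0.10. Relative to all genes, the median of these 18 took either sign, at 0.04 with DMSO replicate 2 left out, -0.06 when DMSO replicate 3 was left out and -0.07 when nocodazole replicate 3 was. The 11 measured septins, filament proteins that anillin recruits, had a median of -0.07, and limma called 0 after quantile normalization. At an unadjusted p under 0.05, 1 was lower, against 5.05% of all genes. As deposited 6 were called lower, against 24.9%. SEPTIN6 was lowest with -0.38 ± 0.14 (limma adjusted p = 0.425) and SEPTIN8 highest with 0.07 ± 0.13, and SEPTIN14 lay below background on all 4 arrays. Relative to all genes, the septin median was -0.08 after quantile normalization, -0.13 as deposited and after median centring, -0.12 without DMSO replicate 3 and -0.14 without nocodazole replicate 3.

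Most other abscission genes differed in sign from CEP55 after quantile normalization, though not as deposited, where their median was -0.37. Of these 17 other measured genes, mostly ESCRT-III subunits and the ATPases VPS4A and VPS4B that remodel them, 15 had values above 0, with a median of 0.13. Limma called 0 after quantile normalization. As deposited 4 of the 17 were called lower, near the share over all genes, 24.9%. At an unadjusted p under 0.05, 1 was higher, against 4.33% of all genes. That 1 gene was CHMP4B, the ESCRT-III subunit that forms much of the scission filament. It had 9.34 on both nocodazole arrays, against 8.91 and 8.74 with DMSO, a change of 0.52 ± 0.11 (SE; limma adjusted p = 0.132). SPAST, the microtubule-severing ATPase spastin, was lowest with -0.12 ± 0.16. Relative to all genes, the median of the list was 0.13 after quantile normalization, 0.08 as deposited and after median centring, and 0.07 without nocodazole replicate 3. PDCD6IP, the CEP55 partner ALIX, had no row with 1 symbol.

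**Figure D4:**
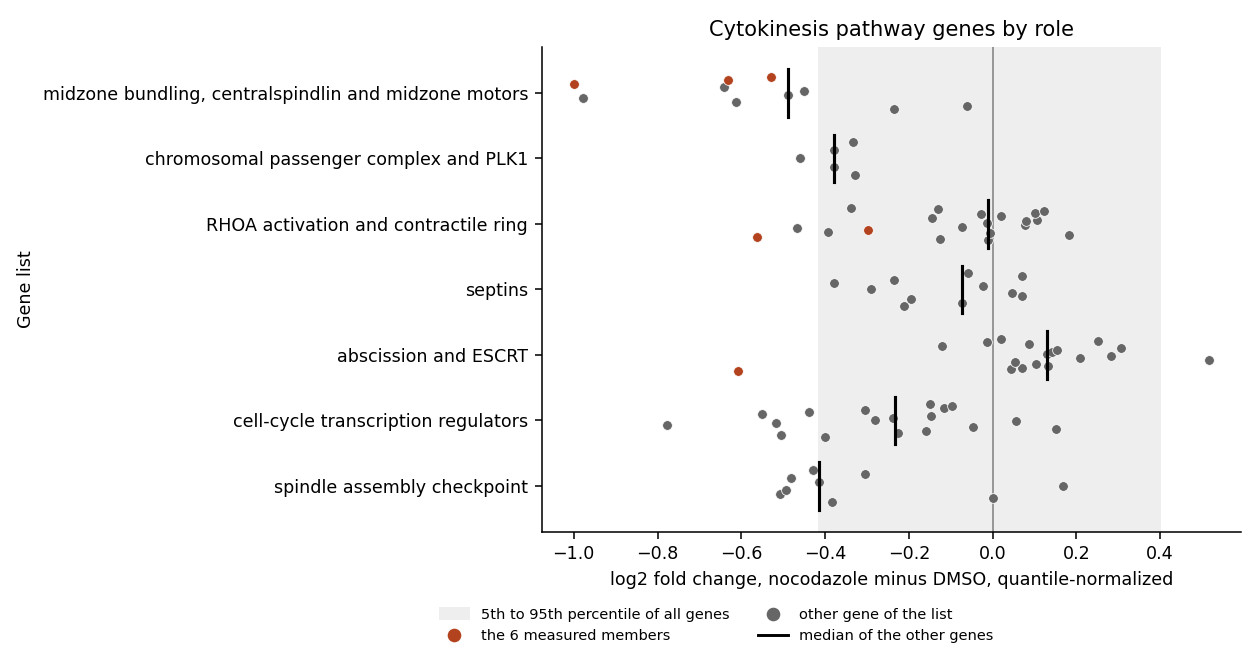
Log2 fold change after quantile normalization of each measured pathway gene, nocodazole minus DMSO, by list; the 6 genes described here are in red, bars are medians of the other genes, and grey shading spans the 5th to 95th percentile of all genes. CEP55 lies apart from the other abscission genes, whose median is 0.13 (-0.37 as deposited), and the midzone list lies to the left with a median of -0.49.

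Genes of cell-cycle transcription regulators were looked at beside the genes described here. Binding of these regulators to any promoter was not tested. Of 18 measured MuvB, B-MYB, FOXM1, E2F and pocket-protein genes, 16 had values below 0, with a median of -0.23. Limma called 0 after quantile normalization and 15 lower as deposited, against 24.9% of all genes lower as deposited. At an unadjusted p under 0.05, 7 were lower, against 5.05% of all genes. MYBL2, which encodes B-MYB, had 9.41 and 9.42 with nocodazole, against 9.97 and 9.96 with DMSO. Its log2 fold change was -0.55 ± 0.09 (SE; limma adjusted p = 0.0711). FOXM1 had a change of -0.52 ± 0.10 (limma adjusted p = 0.108). LIN9, a MuvB core subunit, had one of -0.15 ± 0.15 (limma adjusted p = 0.897). The repressor E2F8 was lowest with -0.78 ± 0.16 (limma adjusted p = 0.138), and E2F5, close to background, highest with 0.15 ± 0.26.

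Spindle assembly checkpoint genes, another group of mitotic genes, had a median of -0.41 over 9 measured members, against -0.58 for the 6 genes. Limma called 0 of the 9 after quantile normalization. At an unadjusted p under 0.05, 6 passed, all lower, against 5.05% of all genes lower. As deposited 8 were called lower, against 24.9%. CDC20, the activator of the anaphase-promoting complex, was lowest with -0.51 ± 0.10 (limma adjusted p = 0.0962), and MAD1L1 highest with 0.17 ± 0.12. The difference between these medians was not tested.

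The genes most like the 6 were those whose 4 gene-centred normalized values lay nearest, by Euclidean distance, to the mean of the 6, among 15931 genes above background. They were TM4SF18, TUBA1A, CAP2, KIF18B and KATNAL1, at distances of 0.04 to 0.06 over the 4 arrays. Of the 6 genes themselves PRC1 was nearest to their mean, at 0.04, and NUSAP1 farthest, at 0.45. TUBA1A, an alpha-tubulin, had 7.96 and 8.16 with nocodazole, against 8.75 and 8.62 with DMSO, and KIF18B, a kinesin that shortens astral microtubules, had 7.59 and 7.71, against 8.28 and 8.20. Their log2 fold changes were -0.62 and -0.59, and those of TM4SF18, CAP2 and KATNAL1 were -0.61, -0.57 and -0.58. TM4SF18 had a mean deposited level of 4.99, close to the highest background median, 4.81. None of the 5 passed (limma adjusted p from 0.111 to 0.294). Changes like those of the 6 follow from how these genes were picked.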

How the data were processed

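RNA of 4 samples of treated U2OS cells was measured, 1 array each. The deposited table holds log2 expression; per the submitters' processing notes they come from Partek 7.0 and RMA (robust multi-array average) on hg19, and no further setting is given there. Of 65535 rows, 1530 were control rows and 21771 had exactly 1 symbol, and the brightest row stood for each of 21469 genes. Gene rows were quantile-normalized, since the deposited columns did not share 1 distribution, and fitted with limma 3.58.1 in R 4.3.3 (lmFit, and eBayes with a trend on level), two-sided, with Benjamini-Hochberg adjustment. The same fit was made as deposited, and a gene counts as having changed only where it passes on both scales. For median centring, each array was shifted by the median of all its rows that are not controls. The fit was tested on simulated data. The members, lists and tests were chosen with earlier results of these data known. Besides the members, each list's highest and lowest gene and a few fixed partners and regulators are named; RHOA and SEPTIN14 were named after their values were seen. The labels do not say how the replicates were kept apart beyond calling them biological, and only 4 arrays set the precision. Replicate numbers are shared between the groups, without a label that says what they mark.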

Additional observations from a re-analysis of the deposited data

How the results depend on the processing

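The 6 genes kept a negative log2 fold change under every setting tried, between -1.69 and -0.16, and their count of calls did not hold. Limma called 0 of them after quantile normalization, 3 with dim genes left out, and 6 as deposited, also with a replicate block there (added after the data were seen). Their median was -0.58 and moved to -1.07 as deposited; with each array left out it stayed between -0.64 and -0.51. Of the 85 other pathway genes, 53 were called as deposited, where 24.9% of all genes were called lower, against 0 of the 85 after quantile normalization. Over all genes the count was 62, and it became 5392 as deposited, 20 after median centring, 10 without a trend, 179 with dim genes left out and 0 with any 1 array left out, where 1 group is a single array and is assumed to vary like the other. Of those 62, 41 were higher and 21 lower, a split that became 51 and 5341 as deposited and 19 and 1 after median centring. As deposited, 13334 genes were called with a replicate block and 1 without a trend, both added after the data were seen. With the values as deposited and any 1 array left out, also added, the log2 fold changes of the 6 genes were between -1.69 and -0.66. The array-wide shift is part of these values. Same-numbered replicates deviated together, with a correlation across genes of 0.22 after quantile normalization and 0.41 as deposited and after median centring, but with 2 pairs the numbers were not taken as pairing; a replicate block gave 37 genes and 0 of the 6. The causes were not tested. All 6 genes lay above the background median on every array, and whether their signal level limited the calls was not tested.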
